A study of Homo sapiens with 24 samples.

Results

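Transcripts that mark the stem cells of the intestinal crypt were examined in HT29, HCT116 and SW480 cells, which are established human colorectal cancer cell lines. The set held 10 protein-coding genes of the 58051 gene identifiers in the files, namely *LGR5*, *LGR4*, *ASCL2*, *SMOC2*, *OLFM4*, *PROM1*, *CD44*, *ALCAM*, *TNFRSF19* and *RGMB*. They were chosen by name, as genes used as markers of normal or malignant intestinal stem cells, and all 10 were found in the files. RNA came from clones in which *CTNNB1* had not been edited (WT) and from clones with both *CTNNB1* alleles edited (KO). In the KO clones CRISPR/Cas9 had removed an exon, which shifts the reading frame of the gene for β-CATENIN. WT refers to editing only. Per the study, HCT116 cells carry a gain-of-function mutation in *CTNNB1*, and HT29 and SW480 cells carry inactivating mutations in *APC*. For each line 2 WT and 2 KO clones had been sequenced, each in a round A and a round B, which gave 4 libraries per line and genotype and 24 in total. The clones were WT 11, WT 40, KO 28 and KO 38 of HT29, WT 4, WT 6, KO 44 and KO 47 of HCT116, and WT 4, WT 5, KO 17 and KO 21 of SW480. Library names join the clone to the round, as in KO 28A. Because every clone derived from a single sorted cell, differences between genotypes rest on 2 clones per arm.

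At the base of the crypt, WNT ligands stabilize β-CATENIN, which binds TCF/LEF factors and activates their target genes. R-spondins strengthen this signal through receptors of the LGR family by removing the ubiquitin ligases RNF43 and ZNRF3 from the cell surface. *LGR5* and *ASCL2* are known both as targets of this pathway and as markers of dividing crypt base columnar cells, whereas surface antigens such as CD44, PROM1 and ALCAM have been used to isolate tumour-initiating cells from colorectal cancers. Most colorectal cancers carry mutations that keep the pathway active without ligand.

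Values are normalized counts, that is, reads of a gene divided by 1 size factor per library. The libraries held 22297049 to 29068378 reads on genes. *CTNNB1* itself was at 5883 to 50939 normalized counts in the 12 WT libraries and at 187 to 1312 in the 12 KO libraries, and the KO means were 4.98%, 1.83% and 2.18% of the WT means in HT29, HCT116 and SW480. Of the 10 markers listed for intestinal epithelium, between 6 and 8 were at 10 or more in every library of a line and genotype, whereas *CDX1* was at 0 in 5 of the 6 groups. Their summed level was 325834 to 466928 in HT29 WT and 490423 to 784641 in HT29 KO libraries, and the ranges of WT and KO libraries overlapped in HCT116 and in SW480. Single markers could still differ where the sums overlapped. *CDX2* was at 857 to 1333 in SW480 WT and 52.7 to 165 in SW480 KO libraries. *KRT20* was at 58.2 to 104 in HCT116 WT and at most 0.983 in HCT116 KO libraries. *EPCAM* was lower in SW480 KO (645 to 971 against 1117 to 2110) and higher in HCT116 KO (17839 to 19577 against 12103 to 14910). The 6 fibroblast markers summed to 13.2 to 23.0 in HT29 WT and 109 to 1210.3 in HT29 KO libraries, with *LUM* at 82.5 to 1125 in KO and at 0 in WT. *LUM* was also at 5.64 to 50.4 in SW480 KO and at 0 in SW480 WT libraries. In HCT116 they summed to 287 to 439 in WT and 324 to 386 in KO libraries, and in SW480 to 151 to 399 and 135 to 202. The 5 immune markers held 17538 to 31295 in HT29, nearly all from *LYZ*, and at most 43.0 in the other lines. The 2 endothelial markers with an identifier reached 234 in SW480 KO and at most 30.0 elsewhere. The part of these marker differences in the results was not tested. As the cultures were sequenced in bulk, fewer cells with a transcript and less transcript per cell cannot be told apart.

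The HCT116 library KO 47A stood apart from the others, with 35449 genes above 0 against 20256 to 24944. It held 13.9 for the fibroblast marker *DCN*, against 0 to 2.77 in the other HCT116 libraries, and 25.7 for the endothelial marker *VWF*, against 1.88 to 10.5. Other fibroblast markers did not follow. There *COL1A1* was at 330, within the 286 to 438 of the other HCT116 libraries, and *LUM* was at 3.21, against 0 to 2.77. Among the stem cell markers it was the only HCT116 KO library with *LGR5*, *ASCL2* or *OLFM4* above 0, at 5.35, 2.14 and 1.07. Results of HCT116 are therefore also given without it where it mattered.

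Between WT and KO libraries, the stem cell markers did not move together. A gene was tested in a line when 4 or more of the 8 libraries reached a value of 10, which 7 of the 10 markers passed in HT29, 6 in HCT116 and 5 in SW480. It was called when limma gave an adjusted p under 0.05 and an absolute log2 fold change over 1. In HT29 *LGR5* was lower and *ALCAM* higher in KO, so that 2 of 7 were called, where 2.3% of all 14921 genes tested were called, 1.9% higher and 0.402% lower. In HCT116 *CD44* and *ALCAM* were higher, 2 of 6, against 5.06% of 15404 genes, 3.17% higher and 1.89% lower. This fit had no term for the round, and with the round as a block *ALCAM* was not called there. In SW480 *CD44* was higher and *ASCL2* and *TNFRSF19* were lower, 3 of 5, against 17.5% of 16325 genes, 10.7% higher and 6.76% lower. The median log2 fold change over the markers tested in HT29, HCT116 and SW480 was −0.08, 0.16 and 0.21, and over all genes tested it was 0.03, −0.01 and −0.0042. No marker was called in all 3 lines. A gene can pass the filter through its high group alone, as *ASCL2* did in SW480, so these counts describe the genes tested and not the 10 markers.

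**Figure D1:**
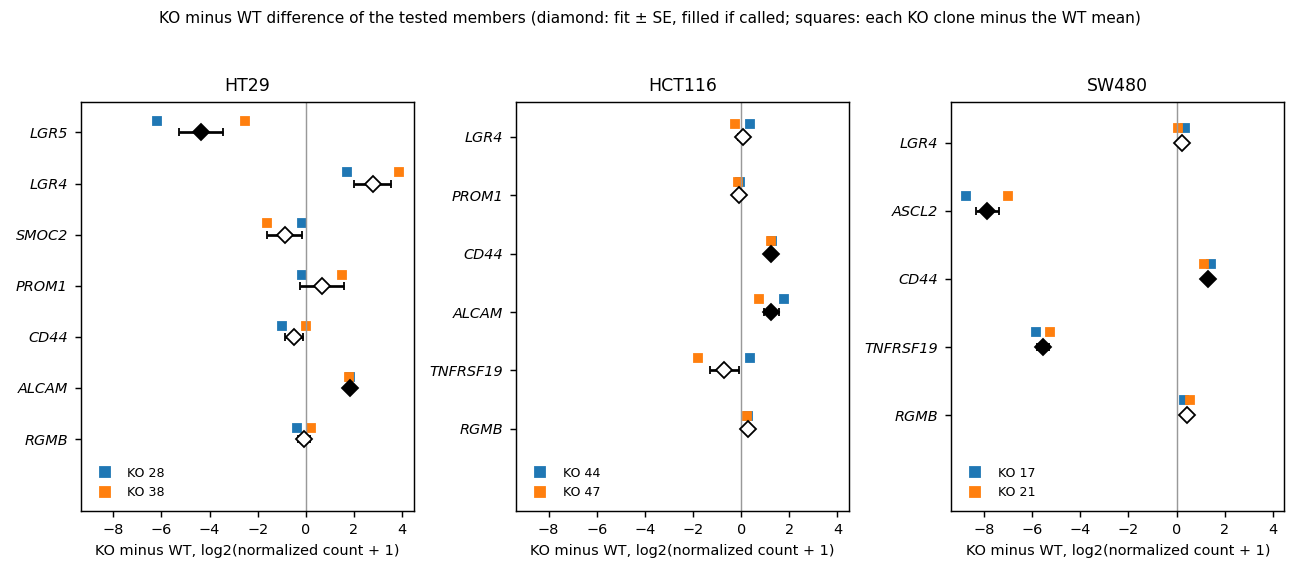
KO minus WT difference of log2(normalized count + 1) for the markers tested in each line, with the fitted value and its SE as a diamond, filled where the gene was called, and each KO clone minus the mean of the WT clones as squares. The HT29 clones KO 28 and KO 38 were far apart for *LGR5* (−6.18 and −2.53) and close for *ALCAM* (1.82 and 1.81).

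Promoter windows of the markers are shown because members of the set moved in different directions in KO cells. RefSeq gave windows for 8 of the 10 genes, 14 in all, on GRCh38.p14. *LGR5* and *ASCL2* had no window and were not searched. The 250 bases before each start were searched on both strands for 4 forms of the TCF/LEF core motif, the letters CTTTG followed by AA, by AT, by TA or by TT. A match was found in 2 of the 14 windows, 1 of *OLFM4* and 1 of *PROM1*, and in 11.96% of all 35116 windows in the table. The windows of *CD44* and *ALCAM*, called higher in KO, of *TNFRSF19*, called lower in SW480 KO, and of *OLFM4*, which held 1 of the 2 matches, read 5′ to 3′ as follows, with the motif in capitals.
*CD44*, chr11:35138921-35139170, plus strand: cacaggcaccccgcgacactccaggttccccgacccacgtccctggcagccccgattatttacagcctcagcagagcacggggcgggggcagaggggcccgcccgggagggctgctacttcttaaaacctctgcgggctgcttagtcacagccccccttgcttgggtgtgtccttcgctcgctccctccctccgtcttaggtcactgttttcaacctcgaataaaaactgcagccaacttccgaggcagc
*ALCAM*, chr3:105366659-105366908, plus strand: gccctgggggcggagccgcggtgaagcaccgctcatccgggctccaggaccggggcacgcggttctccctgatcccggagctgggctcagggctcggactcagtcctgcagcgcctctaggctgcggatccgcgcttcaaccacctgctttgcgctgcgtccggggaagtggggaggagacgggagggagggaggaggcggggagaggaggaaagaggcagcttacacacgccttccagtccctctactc
*TNFRSF19*, chr13:23570162-23570411, plus strand: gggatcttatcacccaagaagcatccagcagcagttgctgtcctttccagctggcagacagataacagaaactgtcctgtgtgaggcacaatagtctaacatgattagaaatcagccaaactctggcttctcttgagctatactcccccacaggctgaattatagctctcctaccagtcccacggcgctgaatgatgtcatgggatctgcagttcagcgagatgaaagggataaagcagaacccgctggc
*TNFRSF19*, chr13:23579110-23579359, plus strand: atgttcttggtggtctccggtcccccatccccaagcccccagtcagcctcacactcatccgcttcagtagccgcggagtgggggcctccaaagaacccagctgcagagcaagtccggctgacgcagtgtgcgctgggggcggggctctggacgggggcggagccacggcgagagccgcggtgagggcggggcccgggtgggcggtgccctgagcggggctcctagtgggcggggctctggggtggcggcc
*OLFM4*, chr13:53028563-53028812, plus strand: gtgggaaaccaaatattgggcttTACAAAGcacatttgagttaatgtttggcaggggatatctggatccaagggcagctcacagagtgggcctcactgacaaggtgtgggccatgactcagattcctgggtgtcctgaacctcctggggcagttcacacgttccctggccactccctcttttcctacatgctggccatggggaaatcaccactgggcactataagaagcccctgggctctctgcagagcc
The match in *OLFM4* is written on the strand of the gene as TACAAAG and begins 227 bases before the start. The match in *PROM1*, in a window not shown, reads CTTTGAT and begins 179 bases before its start. *PROM1* was not called between KO and WT in HT29 or HCT116. Apart from that of *OLFM4*, the windows shown hold none of these letters, which says nothing on TCF/LEF binding to the genes.

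*LGR5* (ENSG00000139292, chromosome 12, 71833578 to 71980090 on GRCh37) encodes an R-spondin receptor and is the best known marker of crypt base columnar cells. It was high in HT29 WT cells and fell in both HT29 KO clones, to unequal levels. The WT libraries 11A, 11B, 40A and 40B held 1151, 842, 769 and 946 normalized counts, and the KO libraries 28A, 28B, 38A and 38B held 8.05, 16.6, 166 and 149. All 4 KO libraries were below all 4 WT libraries, with means of 84.9 ± 84.2 (SD, n = 4) in KO and 927 ± 166 in WT, a 10.9-fold difference of the means. The log2 fold change was −4.36 (SE 0.90, adjusted p = 0.0422 from limma). Clone KO 28 lay 12.8-fold below clone KO 38, at a log2 difference of −3.65 (SE 0.34, adjusted p = 4.6e-04 from limma), whereas the WT clones differed by 0.21 (adjusted p = 0.802). The call of the genotype effect rested on the choice of test: adjusted p was 1.4e-04 in DESeq2 but 0.0784 in edgeR, 0.0840 in limma with the clone as a random effect, 0.115 with no filter and 0.783 on clone means. The fit on clone means called 0 of 14921 genes in HT29, so no gene could keep a call there. The call of *LGR5* was also lost without any 1 of the 4 WT libraries or of the libraries KO 28A and KO 28B, with adjusted p from 0.0679 to 0.118. In each of the 4 pairs of a KO and a WT clone *LGR5* was lower in KO, at log2 differences of −6.29 to −2.43. In HCT116 and SW480 *LGR5* was not tested, with 6 and 8 reads over the 8 libraries of each line, of which 5 were in HCT116 KO 47A.

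*LGR4* (ENSG00000205213, chromosome 11, 27387508 to 27494337) encodes the R-spondin receptor that is expressed more widely along the crypt. It was detected in all 24 libraries. In HT29 the WT libraries 11A, 11B, 40A and 40B held 1098, 945, 177 and 193, and the KO libraries 28A, 28B, 38A and 38B held 1332, 1479, 7119.7 and 5555. Every HT29 KO library was above every WT library, and within each genotype the clones stood apart. WT 11 was 5.53-fold above WT 40 (log2 difference 2.46, SE 0.20, adjusted p = 3.0e-04 from limma) and KO 38 was 4.51-fold above KO 28 (log2 difference of KO 28 minus KO 38 −2.16, SE 0.20, adjusted p = 4.0e-04). The log2 fold change of KO against WT was 2.77 (SE 0.79), and with adjusted p = 0.118 *LGR4* was not called. Over the 4 pairs of clones the difference ran from 0.46 for KO 28 minus WT 11 to 5.08 for KO 38 minus WT 40. DESeq2 called it, with adjusted p = 0.00417, and leaving out clone KO 28 gave 0.0422. Of the HT29 KO clones, KO 38 had the higher value of both receptors.

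In HCT116 the *LGR4* values were 198, 202, 240.2 and 171 in WT 4A, 4B, 6A and 6B and 249, 270.3, 163 and 179 in KO 44A, 44B, 47A and 47B. The groups overlapped, with a log2 fold change of 0.06 (SE 0.20, adjusted p = 0.869). SW480 had 386 ± 40.7 in WT and 447 ± 58.0 in KO libraries (SD, n = 4), a difference of 0.21 on the log2 scale (SE 0.12, adjusted p = 0.173). The KO effect on *LGR4* in HT29 exceeded that in HCT116 by 2.71 (SE 0.74, adjusted p = 0.0254) and that in SW480 by 2.56 (SE 0.74, adjusted p = 0.0214), in a limma fit of all 24 libraries in which 7.76% and 13.9% of genes passed the same test. Neither difference passed on clone means, with adjusted p = 0.501 and 0.365, and the first was lost with no filter (0.0511). Both were also lost without KO 38B, WT 40A or WT 40B of HT29, with adjusted p from 0.0503 to 0.0569.

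*ASCL2* (ENSG00000183734, chromosome 11, 2289728 to 2291818) encodes a basic helix-loop-helix factor that maintains the stem cell program of crypt base cells. It was highest in SW480 WT and nearly lost in SW480 KO. The SW480 WT libraries 4A, 4B, 5A and 5B held 297, 354, 654 and 469.8 normalized counts. KO 17A and KO 17B held none, and KO 21A and KO 21B held 2.80 and 1.92. No library overlapped, and the log2 fold change was −7.86 (SE 0.47, adjusted p = 5.1e-07 from limma). Since only 5 reads remained over the 4 KO libraries, against 1837 in WT, the fitted value depends on the pseudocount, and ran from −9.75 with 0.1 to −6.15 with 5. The ratio of reads per size factor was 379 (exact 95% interval 162 to 1169, for counting error only). The adjusted p on clone means was 0.00132.

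In HT29 *ASCL2* stayed under the filter, with 53.8 and 55.8 in WT 11A and 11B, 11.9 and 6.26 in WT 40A and 40B, 0 in KO 28A, 28B and 38A, and 2.59 in KO 38B. All 4 KO libraries lay below all 4 WT libraries. The KO libraries had 2 reads in all and the WT libraries 128, a ratio of 64.1 (exact 95% interval 17.4 to 535). With no filter the adjusted p in limma was 0.0144. The WT clones differed 6.04-fold, WT 11 being the higher. HCT116 had no *ASCL2* read in 7 libraries and 2 reads in KO 47A, and no fold is given.

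*SMOC2* (ENSG00000112562, chromosome 6, 168841831 to 169073984) and *OLFM4* (ENSG00000102837, chromosome 13, 53602948 to 53626192) encode secreted proteins of crypt base cells. *SMOC2* was low throughout. In HT29 it was at 6.72, 7.10, 18.8 and 43.8 in WT 11A, 11B, 40A and 40B and at 13.1, 12.7, 1.90 and 7.78 in KO 28A, 28B, 38A and 38B, so that the groups overlapped (log2 fold change −0.87, SE 0.73, adjusted p = 0.571 from limma). In HCT116 15 reads fell in KO and 3 in WT libraries, and SW480 had 1 read in its 8 libraries. The WT to KO ratio in HCT116 was 0.189 (exact 95% interval 0.0351 to 0.668, for counting error only), with 6 of the 15 KO reads in KO 47A.

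*OLFM4*, a glycoprotein gene used as a stem cell marker in human colon, was above 2 normalized counts in a single clone, HT29 WT 11. HT29 WT 11A and 11B held 234 and 48.7 normalized counts, WT 40A held 1.98 and WT 40B none. The 4 HT29 KO libraries had no read, whereas the WT libraries had 294. Against a floor of 3 reads over the 4 KO libraries, the WT level was at least 98.1-fold higher, but 292 of the WT reads came from clone WT 11, and the lowest WT library was at 0 like the KO libraries. With no filter adjusted p was 0.401. HCT116 and SW480 had no read of *OLFM4* apart from 1 in HCT116 KO 47A.

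*PROM1* (ENSG00000007062, chromosome 4, 15964699 to 16086001) encodes CD133, a membrane protein of cell protrusions. In HT29 it differed more between clones of a genotype than between genotypes. In HT29 WT 11A and 11B it was at 2988 and 2478, in WT 40A and 40B at 287 and 214, in KO 28A and 28B at 741 and 724, and in KO 38A and 38B at 2368 and 2253. Both KO clones lay between the WT clones, with a log2 fold change of 0.66 (SE 0.92, adjusted p = 0.745 from limma). WT 11 exceeded WT 40 by 10.9-fold (log2 difference 3.45, SE 0.21, adjusted p = 1.0e-04) and KO 38 exceeded KO 28 by 3.15-fold (KO 28 minus KO 38 −1.66, SE 0.21, adjusted p = 0.00167). Over the 4 pairs of clones the KO minus WT difference thus ran from −1.89 to 3.21. HCT116 libraries held 768 to 1101 in WT and 805 to 986 in KO, without a difference beyond the spread (log2 fold change −0.09, SE 0.13, adjusted p = 0.691). SW480 libraries held at most 5.60, with 3 reads in WT and 9 in KO.

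The clone comparisons extended to other markers in HT29. Between WT 11 and WT 40, *LGR4*, *PROM1* and *CD44* were called, 3 of 7, where 7.58% of all genes tested were called. Between KO 28 and KO 38, *LGR5*, *LGR4* and *PROM1* were called, 3 of 7, against 12.5%, and *CD44* differed by −0.999 (SE 0.16, adjusted p = 0.00612 from limma), just under the fold threshold. *ALCAM* differed by 0.04 between the WT and by 0.02 between the KO clones (SE 0.20 for both). In HCT116 *ALCAM* was called between KO 44 and KO 47, 1 of 6, against 3.28%, and between WT 4 and WT 6 none was called, against 1.44%. SW480 clones differed in *ASCL2* between KO 17 and KO 21, 1 of 5, against 4.61%, which rested on 5 reads, and none was called between WT 4 and WT 5, against 1.97%. Limma gave an unadjusted p under 0.05 for 3 markers in each of these pairs of WT clones, and DESeq2 and edgeR called none there. The *ALCAM* call between the HCT116 KO clones was lost without KO 47A (log2 difference 0.82) and without KO 44B (0.92), both under the fold threshold. The *ASCL2* call between the SW480 KO clones was lost in DESeq2 (adjusted p = 0.0605) and in edgeR (0.0776).

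*CD44* (ENSG00000026508, chromosome 11, 35160429 to 35253949) encodes a receptor for hyaluronan and was the most abundant of the 10 markers per length in WT cells of each line. In HCT116 it was at 13420.2, 13115, 11128 and 7637 in WT 4A, 4B, 6A and 6B and at 28467, 25512, 24041 and 27609.7 in KO 44A, 44B, 47A and 47B. The SW480 values were 5982, 6629.9, 7115 and 7632 in WT 4A, 4B, 5A and 5B and 17890.2, 18962, 14683 and 15728 in KO 17A, 17B, 21A and 21B. In both lines every KO library was above every WT library. The rise was 2.33-fold of the means in HCT116 (log2 fold change 1.25, SE 0.16, adjusted p = 5.0e-04 from limma) and 2.46-fold in SW480 (log2 fold change 1.30, SE 0.10, adjusted p = 2.7e-06). Clone means gave adjusted p = 0.00938 and 0.00340. Without clone WT 6, the HCT116 value was 0.99 (adjusted p = 0.00105) and thus under the fold threshold.

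HT29 did not share this rise of *CD44*. There WT 11A, 11B, 40A and 40B held 14981, 12997, 6628 and 6709, and KO 28A, 28B, 38A and 38B held 5108, 4649, 9899 and 9585. KO 38 lay between the WT clones and KO 28 below both, for a log2 fold change of −0.49 (SE 0.36, adjusted p = 0.527). The KO effect in HT29 was lower than in HCT116 by a log2 difference of −1.74 (SE 0.36, adjusted p = 0.00381) and lower than in SW480 by −1.78 (SE 0.36, adjusted p = 0.00142), whereas HCT116 and SW480 differed by −0.04 (SE 0.36, adjusted p = 0.963). These tests share the KO and WT libraries of a line. Both differences of HT29 were lost on clone means, with adjusted p = 0.329 and 0.156, where only 59 of 13550 and 254 of 13744 genes passed. Files of counts per gene do not separate *CD44* isoforms.

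*ALCAM* (ENSG00000170017, chromosome 3, 105085753 to 105295744) encodes CD166, a cell adhesion molecule of the immunoglobulin superfamily. In HT29 it was at 629.9, 588, 619 and 565 in WT 11A, 11B, 40A and 40B and at 1877, 2408, 2276 and 1939.5 in KO 28A, 28B, 38A and 38B. The KO libraries were all above the WT libraries, at 2125 ± 257 against 601 ± 29.7 (SD, n = 4), a 3.54-fold rise. The log2 fold change was 1.81 (SE 0.14, adjusted p = 4.1e-04 from limma), and the 4 pairs of clones gave 1.79 to 1.84. Of the alternatives, only clone means ended the call (adjusted p = 0.253). That fit called 0 of the 14921 genes tested in HT29, so it could keep no call and does not bear on *ALCAM* in particular.

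In HCT116 *ALCAM* was at 2476, 2959.6, 4749 and 4425 in WT 4A, 4B, 6A and 6B and at 11250.1, 12649.9, 5259 and 6753 in KO 44A, 44B, 47A and 47B. KO again exceeded WT in every library, by 2.46-fold of the means (log2 fold change 1.26, SE 0.31, adjusted p = 0.0291 from limma). The clones differed, KO 44 being 1.99-fold above KO 47, and the pairs of clones ran from 0.38 to 2.14. Rounds A and B paired the libraries of this line, and with the round as a block adjusted p was 0.0552. The call was also lost on clone means (0.357), without a filter (0.161) and without 1 of the libraries KO 44A, KO 44B, WT 4A, WT 4B or WT 6B (0.0508 to 0.0763), and it was kept without KO 47A (log2 fold change 1.49, adjusted p = 0.0114). The KO effects of HT29 and HCT116 differed by 0.56 (SE 0.63, adjusted p = 0.659). SW480 had only 16 reads in WT and 39 in KO, a ratio of WT to KO of 0.423 (exact 95% interval 0.221 to 0.775, for counting error only), and its libraries overlapped.

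*TNFRSF19* (ENSG00000127863, chromosome 13, 24144509 to 24250243) encodes TROY, a receptor of the tumour necrosis factor receptor superfamily. It fell in SW480 KO cells, from 513, 673, 949 and 981 in WT 4A, 4B, 5A and 5B to 11.3, 12.8, 16.8 and 21.1 in KO 17A, 17B, 21A and 21B. The ranges were far apart, with means of 779 ± 225 and 15.5 ± 4.4 (SD, n = 4), a 50.2-fold difference. The log2 fold change was −5.55 (SE 0.25, adjusted p = 6.3e-08 from limma), and on clone means adjusted p was 7.1e-04. In HCT116 the gene was at 45.9, 17.6, 35.1 and 28.6 in WT 4A, 4B, 6A and 6B and at 66.8, 22.6, 9.63 and 6.66 in KO 44A, 44B, 47A and 47B. Here the groups overlapped (log2 fold change −0.71, SE 0.60, adjusted p = 0.473) and KO 44 was 5.49-fold above KO 47. The KO effect in HCT116 minus that in SW480 was 4.84 (SE 0.65, adjusted p = 1.5e-05), in a comparison in which 12.1% of genes passed, and clone means gave adjusted p = 0.0237. HT29 had no read of *TNFRSF19* in any of its 8 libraries, which allows up to 3 reads in a group of 4.

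*RGMB* (ENSG00000174136, chromosome 5, 98104354 to 98134347) encodes a co-receptor for bone morphogenetic proteins and varied least between lines. HT29 libraries held 229 to 300.3 in WT and 186 to 371 in KO. In HCT116 the WT range was 139 to 183 and the KO range 198 to 209, and in SW480 it was 139 to 200.3 and 214 to 255. The KO libraries of HCT116 and SW480 were thus all above the WT libraries, by small differences. The log2 fold change was 0.43 in SW480 (SE 0.14, adjusted p = 0.0237 from limma), under the fold threshold in a line where 48.1% of genes had an adjusted p under 0.05. In HCT116 it was 0.27 (SE 0.15, adjusted p = 0.264) and in HT29 −0.08 (SE 0.25, adjusted p = 0.886). The kit does not mark strand, and 40.4% of the exon bases of *RGMB* overlap an antisense gene (ENSG00000279232), which was listed at 0 to 1.90 in the 24 libraries. Another antisense gene, *RGMB-AS1*, shares 5.46% and was at 0 to 16.2. How reads on shared bases were assigned was not tested, which also limits the level of *RGMB* per length.

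WT levels of some markers differed widely between lines. The markers listed below for HCT116 were all detected in HT29 WT libraries as well. Dividing by the length of the merged exons allowed genes to be compared. In HT29 WT libraries *CD44* was at 1034 ± 431 normalized counts per kb (SD, n = 4), followed by *PROM1* at 200.1 ± 194, *LGR5* at 177 ± 31.8, *LGR4* at 94.9 ± 76.7 and *ALCAM* at 83.7 ± 4.13. *CD44* stood above the rest of this order in every library, whereas the ranges of *PROM1*, *LGR5* and *LGR4* overlapped with their neighbours. In HCT116 the order was *CD44* at 1133 ± 266, *ALCAM* at 509 ± 154, *PROM1* at 126 ± 19.2, *LGR4* at 31.9 ± 4.46 and *RGMB* at 25.3 ± 3.01. The first 4 did not overlap with each other, and *LGR4* and *RGMB* did. SW480 had *CD44* at 685 ± 70.3, *ASCL2* at 299 ± 106, *TNFRSF19* at 152 ± 43.9, *LGR4* at 60.7 ± 6.40 and *RGMB* at 26.1 ± 3.84, and all neighbours in this order were apart. With the canonical transcript length *LGR4* and *ALCAM* of HT29 changed places, and the rest of these orders was kept.

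Between lines, *LGR5* separated HT29 from the others, with 3563 reads in the 4 HT29 WT libraries against 1 in HCT116 and 2 in SW480. The ratios were 3992 (exact 95% interval 716 to 157705) and 1919 (531 to 15854), for counting error only. *ASCL2* was present in SW480 and HT29 WT, with a log2 difference of HT29 minus SW480 of −4.19 (SE 0.56, adjusted p = 1.7e-05 from limma), and HCT116 WT had no read, so that SW480 was at least 637-fold and HT29 at least 47.8-fold higher against a floor of 3 reads over 4 libraries. *TNFRSF19* was higher in SW480 than in HCT116 by 4.60 (HCT116 minus SW480 −4.60, SE 0.30, adjusted p = 1.3e-08), and against no read in HT29 it was at least 998-fold higher in SW480 and at least 40.8-fold in HCT116. *ALCAM* was higher in HCT116 than in HT29 (HT29 minus HCT116 −2.55, SE 0.26, adjusted p = 1.3e-06) and had 16 reads in SW480, with ratios to SW480 of 156 in HT29 (exact 95% interval 95.7 to 273) and 942 in HCT116. *PROM1* was shared by HT29 and HCT116 (difference −0.18, SE 0.75, adjusted p = 0.85) and nearly missing from SW480 with 3 reads.

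Of 8 markers tested over the 12 WT libraries, 4 were called between HT29 and HCT116, 5 between HT29 and SW480 and 4 between HCT116 and SW480, where 37.5%, 40.1% and 40.2% of 17205 genes were called. Limma called *CD44*, *LGR4* and *RGMB* in none of the 3 comparisons, and the largest of their 9 log2 differences was 1.10, for *LGR4* in HT29 minus HCT116 (SE 0.52, adjusted p = 0.0782). That difference of *LGR4* was called by DESeq2 (1.59, adjusted p = 9.8e-04) and by edgeR (1.62, adjusted p = 0.0146), and by limma without HT29 WT 40A (1.53, adjusted p = 0.0121) or WT 40B (1.49, adjusted p = 0.0185).

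**Figure D2:**
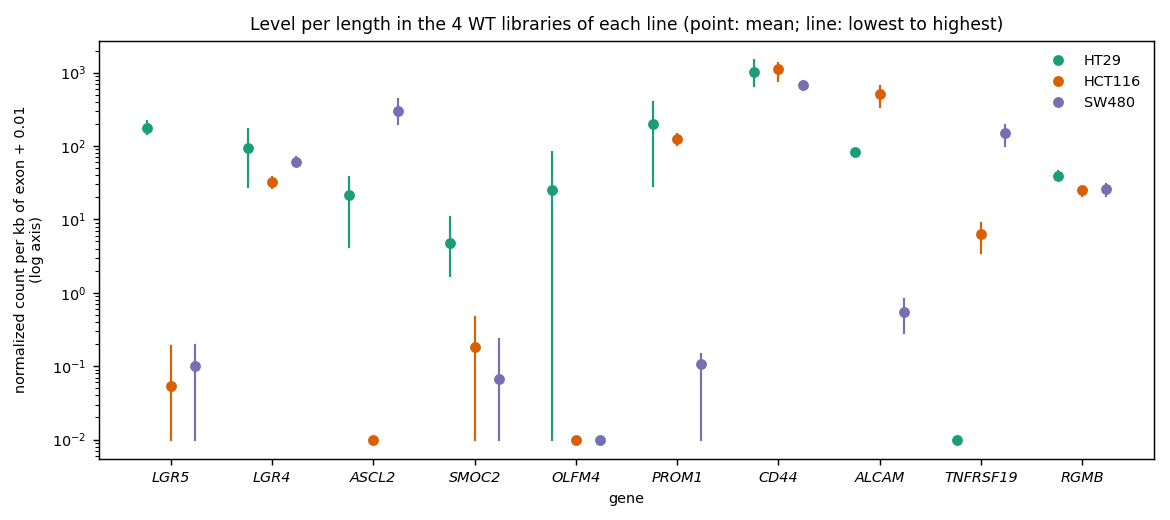
Normalized count per kb of merged exons plus 0.01, on a log axis, for the 10 markers in WT libraries of HT29 (green), HCT116 (orange) and SW480 (violet), with the mean as a point and a line from the lowest to the highest of 4 libraries. *CD44* lay between 599 and 1499 in all 3 lines, whereas *LGR5*, *ASCL2*, *TNFRSF19*, *ALCAM* and *PROM1* were near 0 in at least 1 line.

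Genes around these markers were taken from 5 lists. In the R-spondin receptor axis, 5 of 9 genes were tested in each line. 1 gene fell in HT29, 1 in HCT116 and 2 in SW480, while none rose, and *RNF43* and *ZNRF3*, which encode the ubiquitin ligases that remove WNT receptors, made up these calls. Over all genes tested in these lines, 0.402%, 1.89% and 6.76% were called lower and 1.9%, 3.17% and 10.7% higher. *RNF43* fell from 1726 ± 753 to 60.2 ± 17.6 in HCT116 (SD, n = 4; log2 fold change −4.76, SE 0.32, adjusted p = 5.6e-06 from limma) and from 2906 ± 504 to 369 ± 19.3 in SW480 (−2.96, SE 0.12, adjusted p = 2.4e-08). In HT29 it was at 3968 ± 407 in WT and 4148 ± 1484 in KO (0.0099, SE 0.23, adjusted p = 0.988). *ZNRF3*, named after its values were seen like the SW480 and HT29 values of *RNF43*, fell in HT29 (−1.14, SE 0.19, adjusted p = 0.0175) and in SW480 (−2.36, SE 0.07, adjusted p = 3.1e-09). The HT29 call was lost with the clone as a random effect (adjusted p = 0.151). Medians of the axis were −0.25, −0.33 and −0.08, against 0.03, −0.01 and −0.0042 over all genes tested. In HT29, HCT116 and SW480, 0, 1 and 1 genes of the axis were higher in KO at an unadjusted p under 0.05, and DESeq2 and edgeR called no rise.

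The other crypt base and reserve stem cell genes numbered 18, of which 17, 16 and 17 were tested in HT29, HCT116 and SW480. In HT29 1 rose and 5 fell, in HCT116 1 rose and 4 fell, and in SW480 1 rose and 6 fell. Over all genes tested in these lines, 1.9%, 3.17% and 10.7% were called higher and 0.402%, 1.89% and 6.76% lower. The medians of the list were −0.39, −0.17 and 0.01, against 0.03, −0.01 and −0.0042 over all genes tested. By an unadjusted p under 0.05 alone, SW480 was nearly even, with 8 genes of the list higher and 7 lower in KO. Of these 8, only the 1 called rise was over the fold threshold. DESeq2 and edgeR also called 1 rise and 6 falls for SW480. The unadjusted counts were 2 higher against 6 lower for HT29, and 3 against 6 for HCT116. *AXIN2*, a negative feedback gene of the WNT pathway, was the only gene of the 5 lists that was called in all 3 lines. It went from 675 ± 78.2 to 78.8 ± 71.2 in HT29 (log2 fold change −3.70, SE 0.70, adjusted p = 0.0321 from limma), from 431 ± 118 to 10.5 ± 4.03 in HCT116 (−5.25, SE 0.31, adjusted p = 1.2e-06) and from 11508 ± 534 to 439.9 ± 111 in SW480 (−4.74, SE 0.15, adjusted p = 6.7e-09). In HT29 the call of *AXIN2* was lost with the clone as a random effect (adjusted p = 0.0601). *HOPX*, a marker of reserve stem cells, rose in HT29 from 2.16 ± 4.32 to 113 ± 47.9 (5.92, SE 0.77, adjusted p = 0.00560), and *LRIG1*, which encodes an inhibitor of ERBB receptors, fell there from 551 ± 118 to 32.2 ± 9.74 (−4.08, SE 0.28, adjusted p = 1.8e-04). *HOPX* passed the filter through its KO libraries alone, with 0 to 8.64 in WT, so the size of its rise rests on WT values near 0. The other HT29 genes that fell, named after their values were seen, were *EPHB2*, *MEX3A* and *CDCA7*. In HCT116 *SOX4*, a transcription factor gene, fell by 2.14 on the log2 scale (SE 0.29, adjusted p = 0.00119). There *CLU* and *SLC12A2* also fell and *SOX9* rose, and in SW480 the gene that rose was *NAV1*, all named after their values were seen. Beside *AXIN2*, the genes that fell in SW480 were *SOX4* (−3.60), *LRIG1* (−1.03), *MEX3A* (−2.14), *MSI1* and *ETS2*, also named after their values were seen. *SOX4*, *LRIG1* and *MEX3A* were thus called lower in 2 lines each. With the clone as a random effect, 1 rise and 1 fall were left in HT29, and the counts in HCT116 and SW480 did not change. Without HT29 KO 38B 1 gene rose and 3 fell in HT29, and without HCT116 KO 47A 1 rose and 3 fell in HCT116.

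Of 7 other markers of tumour-initiating cells, 6 had an identifier and 4, 3 and 4 were tested in HT29, HCT116 and SW480. None was called in HT29 by limma or edgeR, where 1 had an unadjusted p under 0.05 and DESeq2 called 1. In HCT116 *DPP4* and *ITGA6* rose, named after their values were seen, and in SW480 *CXCR4* and *DCLK1* fell. *CXCR4*, a chemokine receptor gene, went from 6638 ± 506 to 161 ± 41.1 in SW480 (−5.38, SE 0.15, adjusted p = 2.8e-09 from limma), and *DCLK1*, a kinase gene used as a tuft cell marker, fell by 3.61 on the log2 scale (SE 0.26, adjusted p = 3.6e-06). The list medians were 0.21, 1.27 and −2.30, against 0.03, −0.01 and −0.0042 over all genes tested, of which 2.3%, 5.06% and 17.5% were called. Of the regulators of *CD44* splicing, *ESRP1* and *ESRP2*, only *ESRP2* was called, falling in SW480 from 431 ± 95.6 to 97.0 ± 18.3 (−2.13, SE 0.19, adjusted p = 6.4e-06), and in HT29 and HCT116 neither was called by limma, DESeq2 or edgeR, with 0 and 1 at an unadjusted p under 0.05. The fetal-like and regenerative genes numbered 7, of which 6, 6 and 5 were tested. None was called in HT29, *CCN1* rose in HCT116 and *S100A6* and *ANXA1* rose in SW480, named after their values were seen, with medians of 0.87, 0.80 and 0.62. In HT29 2 of them had an unadjusted p under 0.05, DESeq2 called 1 and edgeR none, and limma called 1 without KO 38B. No gene of this list was lower in KO at an unadjusted p under 0.05 in any line. Over all genes tested in HT29, HCT116 and SW480, 1.9%, 3.17% and 10.7% were called higher, and the medians were 0.03, −0.01 and −0.0042. An unadjusted p under 0.05 in either direction was found for 2417 of 14921, 4553 of 15404 and 8905 of 16325 genes.

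**Figure D3:**
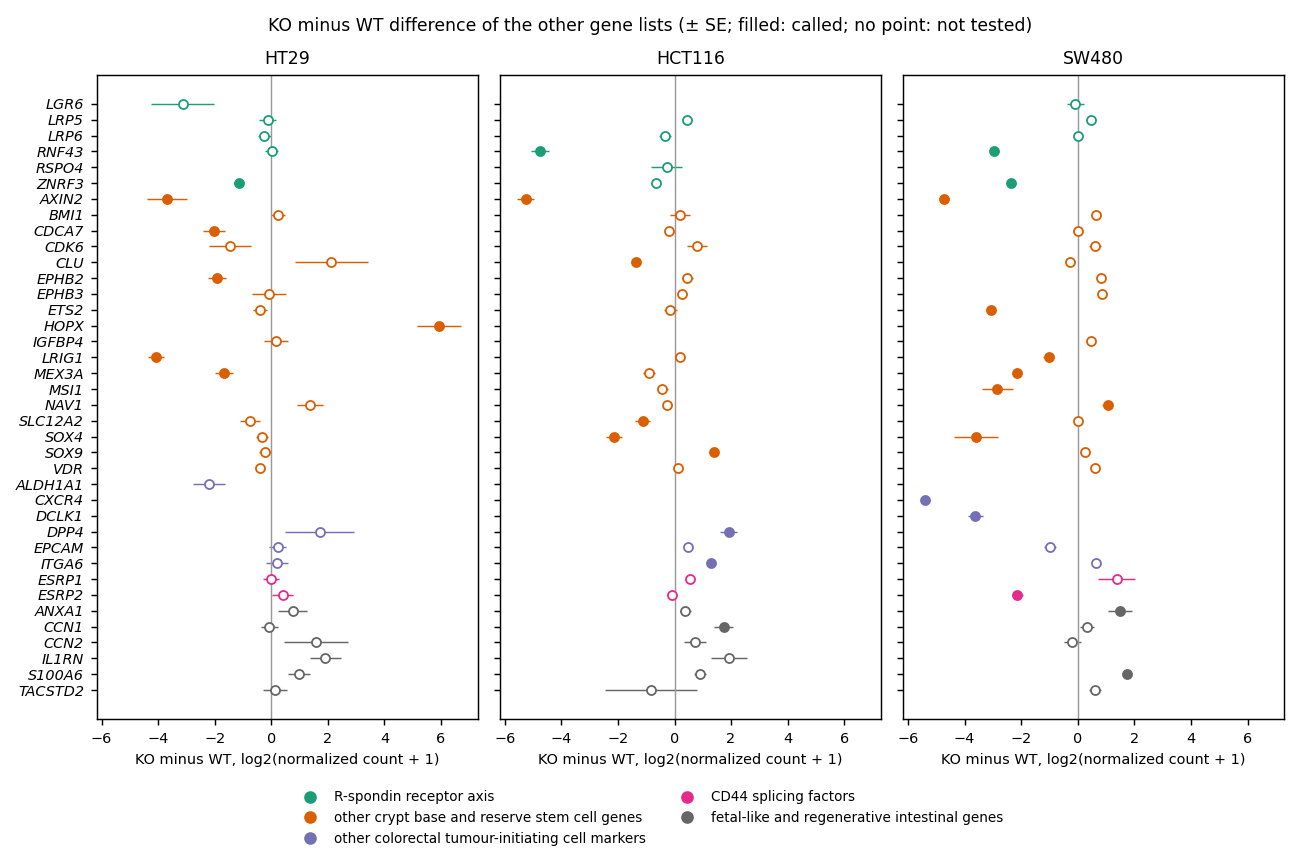
KO minus WT difference of log2(normalized count + 1) with its SE for the genes of 5 other lists in HT29, HCT116 and SW480, filled where the gene was called. *AXIN2* was the only gene of these lists called in all 3 lines, at −3.70, −5.25 and −4.74.

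The genes whose pattern over the 12 clones was most like that of a called marker were found by Pearson correlation of clone means, after the mean of each line was subtracted, among 18609 genes. The points share their clones and libraries, and the values are descriptions. For *LGR5* these were *CMTM3* (r = 0.92), *DPYSL2* (0.91) and *ZNF563* (0.90), and for *ALCAM* they were *CALCRL* (0.95), *IL18* (0.93) and *MOXD1* (0.93). *CD44* was closest to *LINC00941* (0.94), *SPRY2* (0.94) and *TFAP2A* (0.92). The nearest to *ASCL2* were *PKIG* (0.95), *LINC02961* (0.95) and *SLC25A48* (0.94), and to *TNFRSF19* they were the pseudogene *NACA4P* (0.98), *METTL9* (0.97) and *ZDHHC23* (0.96), and reads of *NACA4P* may be shared with its parent gene. None of the markers was among the 3 closest genes of these 5 called markers, and the highest correlation of a called marker with another marker was 0.81, for *ASCL2* and *TNFRSF19*.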

How the data were processed

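Poly(A) RNA of the 24 libraries had been prepared with a kit that does not mark strand. Per the submitters' processing notes and the study's methods, the tools were STAR 2.7.5b, featureCounts 2.0.1 and DESeq2 2.11.40.6, with gene models of GRCh37. The deposited per-sample values are a signal, gene counts that the authors divided by 1 size factor per library. Tables of the authors' own comparisons, which hold group means, log2 fold changes and p-values, were not used. Whole reads were recovered from the steps of the values (100.0% of values within 0.01 reads of a whole number), and depth was 22297049 to 29068378 reads.

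Genes that reached a value of 10 in 4 or more of the libraries fitted were tested on log2(value + 1) with limma 3.58.1 (trend, robust) in R 4.3.3, and p-values were adjusted over all genes tested by the Benjamini-Hochberg method. Log2 fold changes are on this scale, which understates the change of low genes. A gene was called at an adjusted p under 0.05 and an absolute log2 fold change over 1, and a difference of KO effects between lines at an adjusted p under 0.05. Genes entered a test of KO effects between 2 lines if they were tested in both. That test took 1 estimate of the spread per gene from all 24 libraries, although the spread could differ between lines. The rounds were independent biological replicates per the study's methods, but the 2 rounds of a clone share that clone, so p-values over 4 libraries do not measure the spread between 4 independent clones. Clone means and the clone as a random effect were therefore tried, beside DESeq2 1.42.0 and edgeR 4.0.16 on the recovered reads, other filters and pseudocounts (0.1 and 5), each library or clone left out, and the round as a replicate block.

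Differences between rounds A and B were correlated between clones in 6 of 6 pairs of HCT116 clones (r = 0.182 to 0.374), in 2 of 6 of HT29 (−0.309 to 0.424) and in 1 of 6 of SW480 (−0.0411 to 0.127) at over 0.1, so rounds were taken to pair the libraries in HCT116. Ratios of low counts carry exact 95% intervals, and the floor was 3 reads over the 4 libraries of a group. Intervals and floors cover counting error only.

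The members and the gene lists were chosen with earlier results of these data known. Beside the members and *CTNNB1*, genes named were those of the other lists called in all 3 lines in the same direction, at most 3 per line with the largest called change, and the 3 genes most correlated with each called member. The test was checked on simulated data with independent libraries and no clone effect, so this check does not cover the spread between clones.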

Additional observations from a re-analysis of the deposited data

Results flagged for a closer look

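*RGMB* in the HCT116 KO library 44A was at 209 normalized counts, apart from the other 3 KO libraries at 198 to 199, with a gap of 0.888 of the group's range, above Dixon's critical value for 4 libraries. It was the only library marked in 38 groups of a marker, line and genotype, where chance marks about 1 in 20 groups.

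The KO effect differed between lines for 3 markers by the limma test of the difference itself. For *LGR4* the effect in HT29 exceeded that in HCT116 by 2.71 and that in SW480 by 2.56 on the log2 scale. For *CD44* the differences were −1.74 for HT29 minus HCT116 and −1.78 for HT29 minus SW480. For *TNFRSF19* the effect in HCT116 minus that in SW480 was 4.84. On clone means the differences of *LGR4* and *CD44* were lost and that of *TNFRSF19* was kept. Neither *LGR4* nor *CD44* was called between KO and WT in HT29 itself. The fit took 1 estimate of the spread over the lines, although the SE of *LGR4* was 0.79 within HT29, 0.20 within HCT116 and 0.12 within SW480.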

How the results depend on the processing

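Beside the libraries left out, 613 values kept their direction and side of the threshold, 18 lost and 6 gained a call, and 7 changed sign. Of the 2 HT29 markers called, 1 was left in edgeR with TMM or RLE scaling, with values of at least 10 in every library, with the clone as a random effect and with the replicate block, and 0 on clone means, where 0 of all 14921 genes were called. With no filter 2 were called, *ALCAM* and *ASCL2*, and the call of *LGR5* was lost (adjusted p = 0.115). *LGR5* in HT29 had adjusted p = 0.0788 with the block, although rounds did not pair the libraries there. Of the 2 HCT116 markers called, 1 was left on clone means, with no filter and with the block. The KO effects that differed between HT29 and HCT116 or SW480 numbered 0 and 0 on clone means, against 2 and 2. Over all genes, 59 and 254 passed on clone means, against 1052 and 1917 in the main fit. With no filter 4 markers differed between HT29 and SW480, and 2 rather than 1 between HCT116 and SW480. Between HCT116 clones KO 44 and KO 47, DESeq2 and the block gave 2 calls rather than 1, and between SW480 clones KO 17 and KO 21, DESeq2, edgeR with TMM and a pseudocount of 5 gave 0. The block changed no other call. The cause of these changes was not tested.

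Of the values that changed sign, none was called. *PROM1* in HT29 was −0.0060 in DESeq2, −0.0039 in edgeR with TMM and −0.0030 with RLE, and its WT difference of HT29 minus HCT116 was 0.69 in DESeq2 and 0.72 in edgeR. *TNFRSF19* between the HCT116 WT clones was 0.0085 in DESeq2 and 0.020 in edgeR.

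With a library or clone left out, 908 values were kept, 27 lost and 12 gained a call, and 37 changed sign. The number of markers called was 1 to 3 in HT29, 1 to 2 in HCT116 and 3 to 3 in SW480. For KO effects it was 1 to 2, 1 to 2 and 1 to 1, between clones 3 to 5 for HT29 KO, 2 to 4 for HT29 WT and 0 to 2 for HCT116 KO. Log2 fold changes that crossed 0 were in HT29 those of *SMOC2* (−1.83 to 0.083), *PROM1* (−1.06 to 2.39), *CD44* (−1.02 to 0.047) and *RGMB* (−0.37 to 0.20), and in HCT116 those of *LGR4* (−0.24 to 0.36), *PROM1* (−0.26 to 0.080) and *TNFRSF19* (−1.78 to 0.36). The difference of KO effects on *CD44* between HCT116 and SW480 ran from −0.22 to 0.049. WT differences did so for *PROM1* of HT29 minus HCT116 (−0.80 to 0.47), *LGR4* of HT29 minus SW480 (−0.27 to 0.61) and *RGMB* of HCT116 minus SW480 (−0.15 to 0.046). Between clones they did so for *ALCAM* in HT29 KO (−0.16 to 0.20) and WT (−0.026 to 0.11), *LGR5* (−0.017 to 0.43) and *RGMB* (−0.29 to 0.049) in HT29 WT, *PROM1* (−0.024 to 0.23), *CD44* (−0.035 to 0.16) and *RGMB* (−0.0050 to 0.076) in HCT116 KO, *LGR4* (−0.26 to 0.22) and *TNFRSF19* (−0.81 to 0.52) in HCT116 WT, and *LGR4* in SW480 WT (−0.059 to 0.26).

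The lengths of canonical transcripts, the lists without HT29 KO 38B or HCT116 KO 47A, and the naming of single genes outside the rule were chosen after seeing the data.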
